A study of Homo sapiens and Mus musculus with 18 samples.

Results

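PDGFB and BDNF transcripts were 16.7-fold and 7.36-fold lower in wild-type L3.6 pancreatic adenosquamous cancer cells than in keratin 17 gene knockouts. FGF2 was 2.21-fold lower there, though its groups came close to overlapping. PDGFA, PDGFC and VEGFB were lower by 1.37-fold, 1.45-fold and 1.36-fold, while VEGFA was 1.31-fold higher in the wild type. In PANC-1 pancreatic ductal cancer cells, the K17 and empty vector libraries had like levels of PDGFB, and the differences of several other growth factors turned on 1 empty vector library. The genes described are 8 secreted growth factors, PDGFA, PDGFB, PDGFC, VEGFA, VEGFB, VEGFC, BDNF and FGF2, out of 34505 gene rows in the human count files. All 8 had a row and all 8 passed the filter on low counts in both lines. The list was drawn up with K17 differences of these libraries known. Their differences with K17 are therefore described by values in every library, and the number past edgeR's threshold is given only beside the share of all genes, with nothing read from it. Receptors and other pathway genes were tested, but their lists too were drawn up with earlier results of these data known. The share of a list past the threshold is therefore given as a description only.

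The platelet-derived growth factors are dimers that bind the receptor kinases PDGFRA and PDGFRB, found mainly on fibroblasts and other mesenchymal cells. The vascular endothelial growth factors bind FLT1, KDR and FLT4 of blood and lymph vessels, with the neuropilins NRP1 and NRP2 as co-receptors. BDNF is a neurotrophin that binds the receptor kinase NTRK2, and FGF2 is a heparin-binding ligand of the fibroblast growth factor receptors. Pancreatic tumours are known for a dense fibrous stroma and for growth along nerves, and tumour cells can be a source of such ligands.

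RNA was sequenced from 4 groups of human cell line cultures, each with 3 libraries. L3.6 cells were wild type for K17 (keratin 17, a cytoskeletal protein encoded by KRT17) or had the gene disrupted with CRISPR-Cas9. PANC-1 cells carried an empty vector or over-expressed K17. The labels give neither the clones behind the knockout, nor the promoter of the vector, nor whether replicates were separate cultures, so the spread between libraries may be technical, and other differences between the groups of a line cannot be told apart from K17. All differences below are K17-high minus K17-low, which is wild type minus knockout in L3.6 and K17 minus empty vector in PANC-1. Levels are CPM, scaled within each line by the TMM method. CPM is a gene's counts per 1000000 counts of its library in genes that passed the low-count filter. A log2 difference is edgeR's fitted log2 fold change. Mouse KPC libraries of the same series were not analysed here, because the tables used name none of their identifiers.

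KRT17 followed the labels, with 175 to 204 counts in the L3.6 knockout libraries, 1112 to 1654 in the wild type, 0 to 2 in the PANC-1 empty vector libraries and 8597 to 9884 with K17. Libraries held 9485257 to 15476629 counts in L3.6 and 59671178 to 70789559 in PANC-1. Among the PANC-1 libraries, the second empty vector replicate differed from the remaining 5, with 18.8% of its counts from mitochondrial DNA against 9.88% to 10.8%. On the first principal component of PANC-1, which held 67.05% of the variance, it lay at 135.14 against -31.65 to -21.99. The PANC-1 results of the growth factors are therefore given with and without that library. On the first principal component of L3.6 the first wild-type library lay at 7.44, between the knockout libraries at -40.6 to -18.6 and the other wild-type libraries at 40.1 and 41.3. Epithelial markers were present in both lines, with a summed level of 3826 to 4131 CPM in the L3.6 knockout, 3221 to 3613 in the L3.6 wild type and 927.5 to 1742 in PANC-1, though CDH1 stood at 0.330 to 1.64 CPM in the group means. Of the squamous markers with a row, TP63 and KRT5 were present in L3.6 while KRT14 was near 0 and KRT6A at 0. Immune markers summed to 1.70 to 6.11 CPM in L3.6 and 35.2 to 51.0 CPM in PANC-1, mostly CD68 there, with CD3E at 0 counts. Neuronal markers summed to 21.6 to 25.0 CPM in L3.6 and 133.6 to 261.7 CPM in PANC-1, mostly MAP2 there, with NEFL at 0 counts in PANC-1. Fibroblast markers summed to 36.6 to 44.9 CPM in L3.6, mostly COL3A1 (34.4 to 37.9 CPM in the group means), and 2.32 to 4.79 CPM in PANC-1. COL3A1 was the only marker past edgeR's threshold in PANC-1 with all libraries. It fell with K17 by 2.84 on the log2 scale (adjusted p = 0.0152), from 2.87 to 0.399 CPM. Without empty vector replicate 2 it fell by 2.92 (edgeR adjusted p = 0.000102), and KRT8, TUBB3 (both higher with K17) and MAP2 (lower) passed too. In wild-type L3.6 cells 4 markers had lower log2 levels past edgeR's threshold, namely KRT19, which fell by 0.30 (adjusted p = 0.0212), KRT7, which fell by 0.52 (0.0326), TP63, which fell by 0.48 (0.000945), and MAP2, which fell by 1.90 (0.00417). Summed squamous markers were higher in the L3.6 knockout (394.6 to 413.8 CPM) than in the wild type (278.2 to 300.9), and endothelial markers lower (5.04 to 5.33 against 11.1 to 15.1, with PECAM1 rising in the wild type, edgeR adjusted p = 0.00468). The part of these markers in the results was not tested. In such bulk libraries fewer expressing cells and less RNA per cell cannot be told apart. Some abundant genes had very few counts, such as TUBB with 0 in all PANC-1 libraries and EEF2 with 32 to 53 in L3.6 against 10960 to 27520 in PANC-1. Some rows may thus miss reads of their gene, which limits comparisons between genes and between lines.

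Promoter sequence is shown for BDNF and FGF2, the 2 members with a promoter entry that differed most in L3.6, both lower in the wild type. PDGFA and VEGFB were also lower there, with ranges that did not overlap, and their sequences are not printed. The bases lie before the outermost start annotated for each gene, from RefSeq on GRCh38.p14, read 5′ to 3′ on the gene's strand, with matches to GGGCGG on either strand, the box bound by SP factors, in capitals. The BDNF window is chr11:27722059-27722280 on the minus strand and the FGF2 window chr4:122826581-122826707 on the plus strand.
BDNF: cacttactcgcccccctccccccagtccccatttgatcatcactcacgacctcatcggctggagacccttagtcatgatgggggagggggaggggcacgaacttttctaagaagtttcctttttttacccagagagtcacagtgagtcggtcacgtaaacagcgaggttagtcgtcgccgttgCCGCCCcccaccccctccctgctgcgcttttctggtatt
FGF2: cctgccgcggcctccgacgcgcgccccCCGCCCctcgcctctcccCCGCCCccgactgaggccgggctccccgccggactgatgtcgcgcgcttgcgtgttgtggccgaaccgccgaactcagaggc
The BDNF window held 1 match in 222 bases at 56.8% G and C, where 39.2% of all promoter windows of that length held a match. The FGF2 window held 2 matches in 127 bases at 78.0% G and C, where 21.8% of windows held one. Neither window held TGANTCA (AP-1), TGACGTCA (the cyclic AMP response element), CACGTG (an E-box) or GGAATG (TEAD), searched on both strands. BDNF has 19 annotated transcripts with several starts, and these gene-level counts do not say which start was used. Of the other members, PDGFA, VEGFB and VEGFC had a promoter entry, and PDGFB, PDGFC and VEGFA did not. The PDGFA, VEGFB and VEGFC windows held 1, 5 and 2 matches to GGGCGG in 250, 204 and 250 bases. Of all windows of those lengths, 42.6%, 35.8% and 42.6% held a match.

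Among the PDGF ligands of L3.6, PDGFB showed the largest difference of all members. PDGFB, whose product forms a dimer that binds both PDGF receptors, stood at 35.8, 37.8 and 38.2 CPM in the knockout libraries and at 2.87, 1.08 and 2.45 CPM in the wild type. The lowest knockout library was far above the highest wild-type library, and the wild-type values rested on 45, 10 and 29 counts. The log2 difference was -4.06 ± 0.248 (SE), from 37.3 ± 1.32 CPM in the knockout to 2.13 ± 0.933 CPM in the wild type (SD, n = 3 each). PDGFB lies on chromosome 22 (39223359 to 39244751, GRCh38), PDGFA on chromosome 7 (497258 to 520296) and PDGFC on chromosome 4 (156760454 to 156971394).

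PDGFA and PDGFC moved the same way in L3.6 by much less. PDGFA, the ligand of PDGFRA, stood at 288.2, 271.3 and 279.6 CPM in the knockout and 207.5, 204.9 and 199.5 CPM in the wild type, a log2 difference of -0.46 ± 0.0469 (SE). PDGFC, which is secreted with a domain that proteases such as PLAT remove, stood at 31.8, 39.9 and 33.5 CPM in the knockout and 22.1, 24.8 and 25.9 CPM in the wild type. Neither gene's groups overlapped, and the PDGFC log2 difference was -0.53 ± 0.118 (SE). Per kilobase of annotated exon, PDGFA exceeded PDGFB in L3.6, at 67.4 ± 2.03 against 9.91 ± 0.351 CPM per kb in the knockout and 49.1 ± 0.982 against 0.567 ± 0.248 in the wild type (SD, n = 3 each).

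The VEGF ligands split in L3.6. VEGFA, the main ligand of blood vessel growth, stood at 227.7, 219.1 and 214.7 CPM in the knockout and 289.2, 270.5 and 306.5 CPM in the wild type. It was the only member whose wild-type libraries all stood above the knockout libraries, with a log2 difference of 0.39 ± 0.0579 (SE). VEGFB, a ligand of FLT1, stood at 57.5, 57.7 and 60.2 CPM in the knockout and 45.2, 42.7 and 40.9 CPM in the wild type, a log2 difference of -0.44 ± 0.0699 (SE). VEGFC, the lymphatic ligand of FLT4, had 16, 2 and 6 counts in the knockout and 7, 11 and 13 in the wild type, and its groups overlapped. At that depth, where 3 counts equal 0.194 to 0.316 CPM, no difference of VEGFC could be told from the spread between libraries. VEGFA lies on chromosome 6 (43770184 to 43786487), VEGFB on chromosome 11 (64234538 to 64238793) and VEGFC on chromosome 4 (176683538 to 176792727) of GRCh38.

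BDNF and FGF2 were both lower in wild-type L3.6 cells. BDNF, whose first start lies beside the sequence printed above, stood at 19.7, 22.2 and 22.7 CPM in the knockout and 2.93, 2.28 and 3.47 CPM in the wild type. The ranges were far apart, with a log2 difference of -2.88 ± 0.182 (SE). FGF2, which leaves cells without a signal peptide, stood at 31.5, 39.6 and 26.9 CPM in the knockout and 11.5, 22.2 and 11.2 CPM in the wild type. Its groups did not overlap but came close, since wild-type replicate 2 was nearer to the knockout than the other wild-type libraries were, and the log2 difference was -1.14 ± 0.282 (SE). FGF2 shares 804 exonic bases with NUDT6 on the opposite strand, and without a known strand setting the reads of that stretch cannot be told apart. NUDT6 stood at 12.1 ± 1.45 CPM in the knockout and 10.5 ± 0.234 CPM in the wild type (SD, n = 3 each), a log2 difference of -0.21 that edgeR did not call (adjusted p = 0.394). BDNF lies on chromosome 11 (27654893 to 27722058) and FGF2 on chromosome 4 (122826708 to 122898236), both in GRCh38. BDNF likewise shares 701 exonic bases with BDNF-AS, and VEGFA 188 with AL136131.3, on the opposite strand.

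Counted together, 6 members were lower and 1 higher in wild-type L3.6 cells past edgeR's threshold of an adjusted p of 0.05, beside 6.1% of all 13891 genes tested that were lower, 3.51% higher and 9.61% either way. The ranges of 7 of 8 members did not overlap (6 lower and 1 higher), beside 33.2% of all genes (17.9% lower and 15.3% higher). Nothing is read from these counts, since the members were chosen with this comparison known. The median log2 difference was -0.50 over the members and 0.01 over all genes tested. With single libraries left out, wild-type replicate 1 among them, the log2 difference was -4.35 to -3.80 for PDGFB and -3.02 to -2.75 for BDNF. It was -1.52 to -0.98 for FGF2 and -0.61 to -0.44 for PDGFC. PDGFB and BDNF were past the threshold in all 13 settings of the fit, PDGFA, VEGFA and VEGFB in 12, PDGFC in 7 and FGF2 in 5. Nothing is read from these numbers either.

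**Figure D1:**
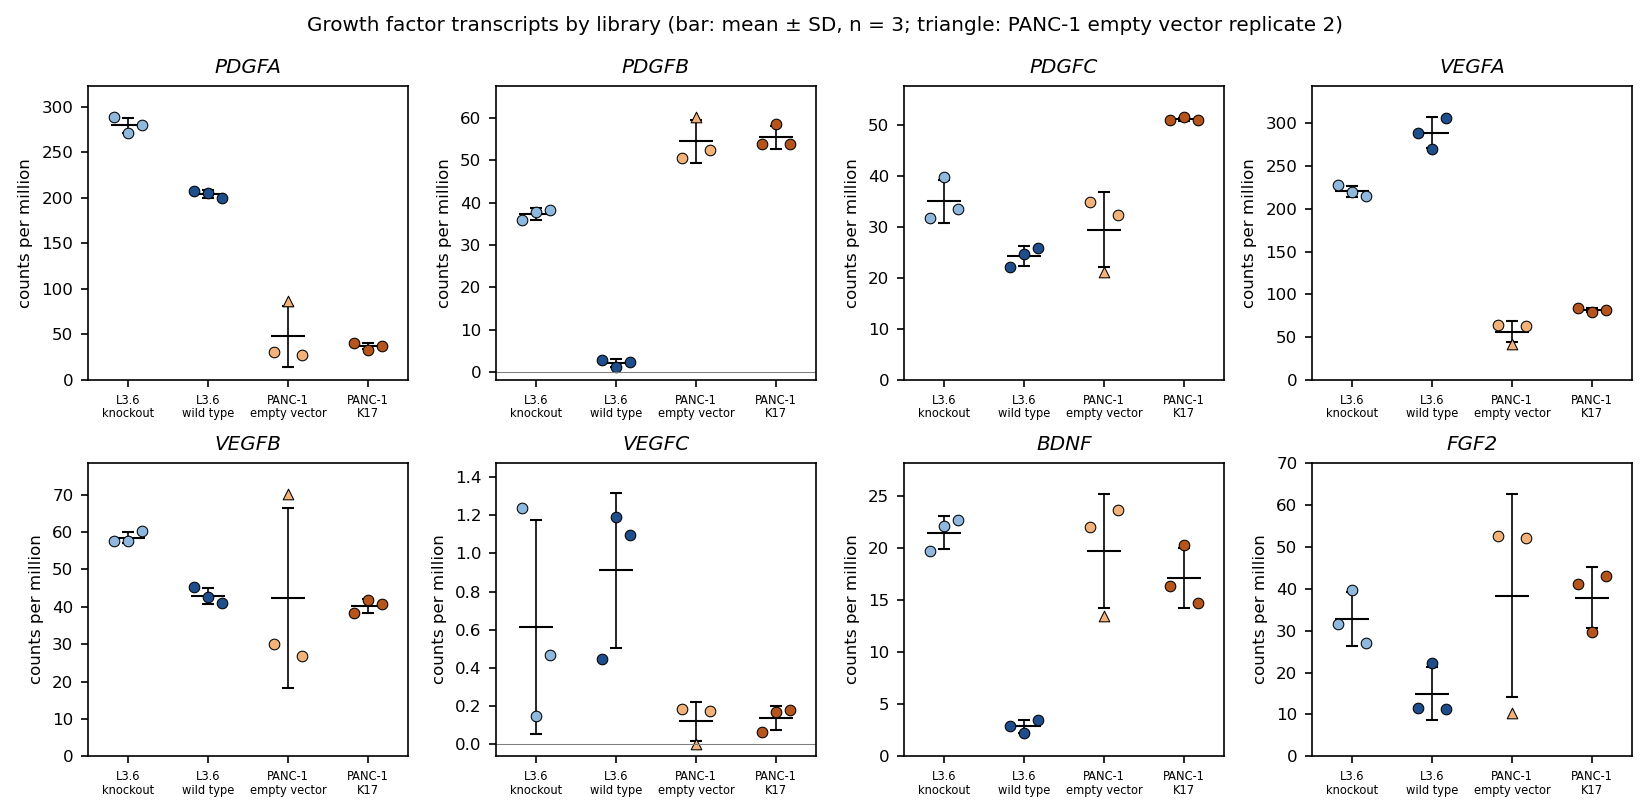
Level of each growth factor transcript in the 12 human libraries, in CPM on a linear axis that differs between panels. Points are libraries, black bars the mean ± SD of 3, and triangles mark PANC-1 empty vector replicate 2. PDGFB and BDNF stand at 1.08 to 3.47 CPM in wild-type L3.6 cells, below every knockout library.

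In PANC-1 the PDGF ligands did not repeat the L3.6 pattern. PDGFB stood at 50.5, 60.3 and 52.5 CPM with the empty vector, against 53.7, 58.6 and 53.8 CPM with K17. The groups overlapped, with a log2 difference of 0.03 ± 0.126 (SE), and 0.10 ± 0.051 (SE) without empty vector replicate 2. PDGFC stood at 34.9, 21.2 and 32.4 CPM with the empty vector, against 51.1, 51.5 and 51.0 CPM with K17. All K17 libraries were above all empty vector libraries, by 0.80 on the log2 scale with a standard error of 0.207, and by 0.60 ± 0.0492 (SE) without empty vector replicate 2. PDGFC was thus higher in the K17-high group of PANC-1 and lower in that of L3.6.

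Empty vector replicate 2 decided the sign of PDGFA and VEGFB in PANC-1. PDGFA stood at 30.3, 86.3 and 27.3 CPM with the empty vector, against 40.0, 33.4 and 37.0 CPM with K17, with that library at 86.3 CPM. The log2 difference was -0.38 ± 0.465 (SE) with the library and 0.35 ± 0.0882 (SE) without it. VEGFB stood at 30.2, 70.2 and 26.9 CPM with the empty vector, against 38.2, 41.8 and 40.9 CPM with K17, a log2 difference of -0.07 that became 0.50 (standard errors 0.383 and 0.0713). For both genes that library was the highest of the 6, and without it all K17 libraries were above both empty vector libraries.

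VEGFA had its higher mean in the K17-high group of both lines. In PANC-1 it stood at 64.1, 41.9 and 63.5 CPM with the empty vector, against 83.5, 79.3 and 82.2 CPM with K17, and the groups did not overlap. The log2 difference was 0.53 ± 0.192 (SE), and 0.35 ± 0.0373 (SE) without empty vector replicate 2, beside 0.39 in L3.6. VEGFC had 13, 0 and 11 counts with the empty vector and 4, 10 and 11 with K17, close to the floor of 3 counts.

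BDNF had a lower mean level with K17 in PANC-1, while the means of FGF2 were close, and both differences depended on the same library. BDNF stood at 22.1, 13.5 and 23.7 CPM with the empty vector, against 16.4, 20.4 and 14.7 CPM with K17, a log2 difference of -0.20 ± 0.258 (SE). Without empty vector replicate 2, which held the lowest BDNF level of the line, it was -0.42 ± 0.136 (SE). FGF2 stood at 52.6, 10.4 and 52.0 CPM with the empty vector, against 41.1, 29.6 and 42.9 CPM with K17, a log2 difference of -0.02 ± 0.585 (SE). Without that library it was -0.47 ± 0.162 (SE), and all K17 libraries were then below both empty vector libraries. Without empty vector replicate 1 or 3 it was 0.28 or 0.26, and without K17 replicate 2 it was 0.13, so that its sign turned.

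With all 6 PANC-1 libraries 0 members passed edgeR's adjusted threshold, beside 0.644% of 16295 genes (0.583% higher and 0.0614% lower). Nothing is read from this count. Without empty vector replicate 2 the count was 4, all higher with K17, beside 20.7% of 16640 genes (11.4% higher and 9.25% lower), and nothing is read from it. The ranges of 2 members did not overlap with all libraries, beside 25.6% of genes (14.5% higher and 11.1% lower). Without that library they were 7, of which 5 were higher and 2 lower with K17, beside 48.3% of genes (25.3% higher and 22.9% lower). The median log2 difference of the members was 0.00 with all libraries and 0.23 without that library, against 0.01 and 0.01 over all genes tested.

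**Figure D2:**
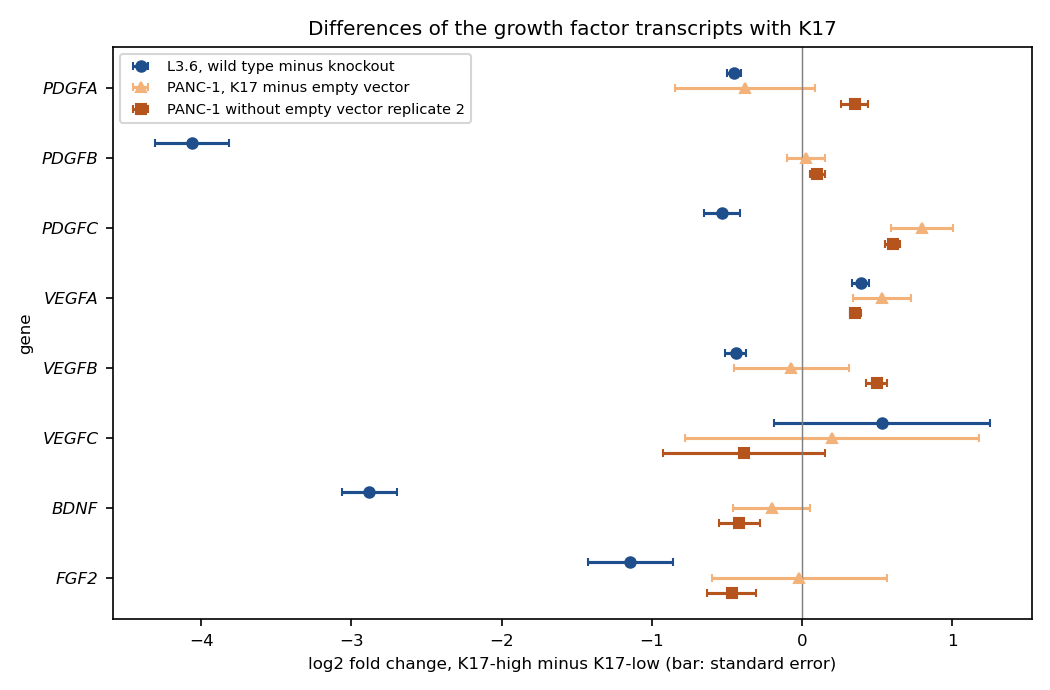
Log2 fold change of each growth factor transcript, K17-high minus K17-low, with its standard error. Circles are L3.6, triangles PANC-1 with all 6 libraries and squares PANC-1 without empty vector replicate 2. PDGFB and BDNF stand at -4.06 and -2.88 in L3.6 and between -0.42 and 0.10 in PANC-1, and PDGFA and VEGFB change sign in PANC-1 with that library.

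Across the 4 groups the members had different orders of level. PDGFA was highest in the L3.6 knockout (279.7 ± 8.44 CPM), then in the L3.6 wild type (204.0 ± 4.08), and far lower in PANC-1 empty vector (48.0 ± 33.2) and K17 cells (36.8 ± 3.33), with overlap only between the PANC-1 groups (SD, n = 3 each). VEGFA was highest in the L3.6 wild type (288.7 ± 18.0 CPM), followed by the L3.6 knockout (220.5 ± 6.62), PANC-1 K17 (81.6 ± 2.18) and PANC-1 empty vector (56.5 ± 12.6), with no overlap between neighbours. PDGFB ran the other way between lines, at 55.4 ± 2.78 CPM in PANC-1 K17, 54.4 ± 5.17 in PANC-1 empty vector, 37.3 ± 1.32 in the L3.6 knockout and 2.13 ± 0.933 in the L3.6 wild type, with overlap only between the PANC-1 groups.

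For the other members neighbouring groups mostly overlapped. BDNF stood at 21.5 ± 1.59 CPM in the L3.6 knockout, 19.7 ± 5.48 in PANC-1 empty vector and 17.1 ± 2.90 in PANC-1 K17 cells, which overlapped in turn, and only the L3.6 wild type was apart at 2.89 ± 0.597 (SD, n = 3 each). FGF2 likewise had overlapping neighbours at 38.3 ± 24.2 (PANC-1 empty vector), 37.9 ± 7.20 (PANC-1 K17) and 32.7 ± 6.43 CPM (L3.6 knockout), and its L3.6 wild type at 15.0 ± 6.28 was apart from the knockout but not from PANC-1 empty vector, whose replicate 2 stood lower still. PDGFC was apart in PANC-1 K17 cells at 51.2 ± 0.282 CPM, followed by overlapping groups from 35.1 ± 4.26 (L3.6 knockout) to 24.3 ± 1.95 (L3.6 wild type). VEGFB had its highest mean in the L3.6 knockout at 58.5 ± 1.52 CPM, with means of 40.3 to 43.0 CPM in the other 3 groups, and the only library of these above the knockout was PANC-1 empty vector replicate 2. VEGFC had a mean below 1 CPM in every group, and neighbours in its order overlapped. With scaling over all 12 human libraries the order of groups changed for PDGFB, PDGFC, VEGFB and BDNF, and VEGFB was then lowest in wild-type L3.6 cells, apart from PANC-1 K17 cells.

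The receptors of the PDGF ligands stood below 1 CPM in every library of both human lines. PDGFRA, the receptor of PDGFA, PDGFB and PDGFC, had 4 to 11 counts in the L3.6 libraries and 16 to 24 in the PANC-1 libraries. PDGFRB had 0 to 2 counts in L3.6 and 1 to 38 in PANC-1. The VEGF receptor kinases were also low, with KDR at 0 to 8 counts in L3.6 and 7 to 21 in PANC-1. Of the neuropilins, NRP1 was at 42.6 to 153.3 CPM in the 4 group means. NRP2 rose in wild-type L3.6 cells to 92.6 ± 4.98 CPM against 78.9 ± 1.36 in the knockout (SD, n = 3 each), by a log2 difference of 0.23 (edgeR adjusted p = 0.0456). That was the only call among 5 tested PDGF and VEGF receptor genes of L3.6, and it held in 3 of 13 settings. It was lost when any single library was left out, at 0.18 to 0.26. In PANC-1 none of 8 passed edgeR's test, with or without empty vector replicate 2.

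NTRK2, the receptor kinase of BDNF, fell in wild-type L3.6 cells, where its ligand was also lower. It stood at 142.8, 153.9 and 149.6 CPM in the knockout and 41.1, 37.8 and 45.6 CPM in the wild type, with no overlap. The log2 difference was -1.84 ± 0.0761 (SE; edgeR adjusted p = 1.22e-05), and it passed in all 13 settings. The other 3 tested neurotrophin receptor genes, among them the sorting receptors SORT1 and SORL1, did not pass in L3.6. In PANC-1 NTRK2 stood at 0.881, 0.367 and 0.910 CPM with the empty vector, against 1.49, 1.99 and 1.55 CPM with K17, a level far below that of L3.6. Its PANC-1 log2 difference of 1.22 did not pass (edgeR adjusted p = 0.333), while without empty vector replicate 2 it was 0.90 (edgeR adjusted p = 0.024). The NTRK2 differences of the lines differed from each other by -3.04 on the log2 scale, with a standard error of 0.34 (edgeR interaction test, adjusted p = 0.00101), and by -2.82 without that library (adjusted p = 4.01e-06). Such a difference between lines passed for 1.54% of all genes tested, and for 11.5% without that library.

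Of 5 FGF receptor genes, FGFR1, a receptor of FGF2, fell in wild-type L3.6 cells. FGFR1 stood at 25.0, 24.9 and 28.9 CPM in the knockout and 16.1, 14.2 and 13.6 CPM in the wild type, a log2 difference of -0.84 ± 0.122 (SE; edgeR adjusted p = 0.00468). The call held in all 13 settings. In PANC-1 it stood at 44.3 ± 2.38 CPM with the empty vector, against 43.4 ± 1.55 CPM with K17 (SD, n = 3 each), a log2 difference of -0.03 (edgeR adjusted p = 0.931), and -0.07 without empty vector replicate 2 (adjusted p = 0.403). The difference between the lines was -0.78 (edgeR interaction test, adjusted p = 0.0473), which did not pass with a replicate block (adjusted p = 0.246).

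Of 13 tested genes of ligand processing and binding, 4 fell past edgeR's threshold in wild-type L3.6 cells, 30.8% of the list against 9.61% of all genes (6.1% lower and 3.51% higher). None rose past it, though the ranges of PCSK5 and SDC4 lay wholly higher in the wild type, at log2 differences of 0.15 and 0.19 (edgeR adjusted p = 0.306 and 0.124). THBS1, thrombospondin 1, a matrix protein known to restrain vessel growth, stood at 789.5, 763.9 and 903.8 CPM in the knockout and 206.7, 221.6 and 175.3 CPM in the wild type, a log2 difference of -2.03 ± 0.0997 (SE; edgeR adjusted p = 4.38e-05). FURIN, a protease that cleaves the precursors of PDGF and BDNF, fell by 0.93 on the log2 scale, with 128.0 ± 1.59 CPM in the knockout and 67.3 ± 1.79 in the wild type (SD, n = 3 each; edgeR adjusted p = 5.83e-05). FGFBP1, a carrier that frees FGF2 from heparan sulfate, fell by 0.83, with 375.8 ± 17.6 CPM in the knockout and 211.6 ± 15.4 in the wild type (edgeR adjusted p = 0.00025). The related protease PCSK6 fell by 0.48 (edgeR adjusted p = 0.0228). That call was lost in 1 fit of the 4 human groups and without knockout replicate 1 or 3 or wild-type replicate 2. With single libraries left out the log2 difference was -0.60 to -0.41. The range of the list's log2 differences in L3.6 was -2.03 to 0.40, with a median of -0.12 against 0.01 over all genes. Nothing is read from the share of the list that passed, since the list was drawn up with earlier results of these data known.

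Signal adaptors and feedback targets passed the test in L3.6 at shares of 9.09% and 8.33%, beside 9.61% of all genes. Of 11 adaptors SHC1, which couples receptor kinases to RAS, fell by 0.28 (edgeR adjusted p = 0.0211). The call held in 7 of 13 settings. It was lost with the replicate block and in 1 fit of the 4 human groups. It was also lost without knockout replicate 2 or 3 or wild-type replicate 2 or 3. With single libraries left out the log2 difference was -0.35 to -0.25. Of 12 feedback and immediate targets SPRY4, an inhibitor of receptor kinase signalling, rose by 0.38, to 73.6 ± 1.76 CPM in the wild type against 56.5 ± 0.456 in the knockout (SD, n = 3 each; edgeR adjusted p = 0.00511). None of 6 regulators of VEGFA passed edgeR's test in L3.6. The most abundant were HIF1A, the hypoxia-inducible factor, with a log2 difference of 0.43 (edgeR adjusted p = 0.0729, against 0.00216 with DESeq2 and 0.0248 with a replicate block in edgeR), and VHL, which marks it for breakdown, with 0.07 (edgeR adjusted p = 0.521). Over all lists 2 of 60 tested pathway genes rose and 7 fell in L3.6, 15% against 9.61% of all genes, with nothing read from that share. The median log2 difference was 0.04 against 0.01 over all genes.

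**Figure D3:**
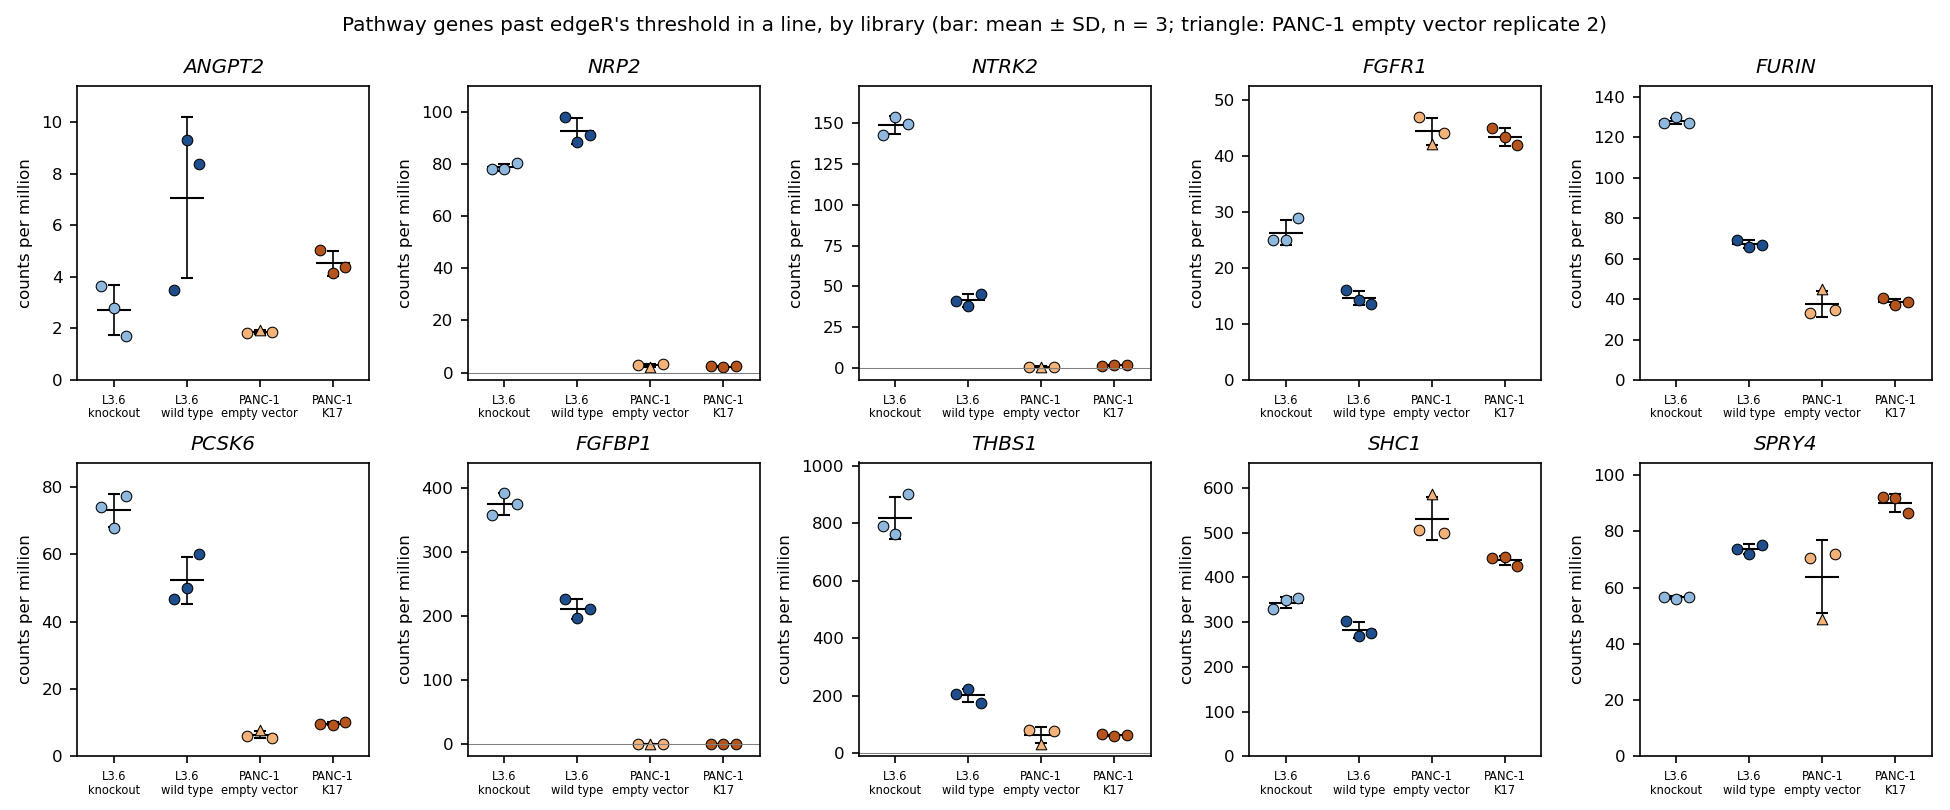
Level of the 10 pathway genes past edgeR's threshold in L3.6 or PANC-1, in CPM on linear axes, by library. Black bars are the mean ± SD of 3 and triangles mark PANC-1 empty vector replicate 2. NTRK2 and THBS1 stand at 37.8 to 45.6 and 175.3 to 221.6 CPM in wild-type L3.6 cells, below all knockout libraries.

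In PANC-1, ANGPT2 was the only one of 61 tested pathway genes past edgeR's threshold. ANGPT2, a ligand of the vessel receptor TEK, stood at 1.8, 1.94 and 1.87 CPM with the empty vector, against 5.04, 4.13 and 4.39 CPM with K17, a log2 difference of 1.27 (edgeR adjusted p = 0.0393). In L3.6 it stood at 3.63, 2.81 and 1.70 CPM in the knockout and 3.5, 9.32 and 8.37 CPM in the wild type, a difference of 1.36 that did not pass (edgeR adjusted p = 0.0832) and in which wild-type replicate 1 lay within the knockout range. The PANC-1 call held in 6 of 13 settings. It was lost with the replicate block and in 1 fit of the 4 human groups. It was also lost when any single library other than empty vector replicate 2 was left out, at 1.19 to 1.34. Without empty vector replicate 2, 10 pathway genes rose and 8 fell, 29.5% of 61 against 20.7% of all genes, with nothing read from that share. Among the 18 were 3 of 4 tested neurotrophin receptor genes, all higher with K17, at log2 differences of 0.53 to 0.90 (NTRK2, SORT1 and SORL1). Of 13 genes of ligand processing and binding 5 then rose, such as the protease genes PLAU by 1.10 and PCSK6 by 0.73 (edgeR adjusted p = 0.00328 and 0.0029), and 3 fell, among them FGFBP1 by 1.59 (adjusted p = 0.028). FGFBP1 was low in PANC-1, at 6 to 9 counts with K17 and 24 to 29 in the empty vector libraries other than replicate 2. THBS1 then fell by 0.34 (edgeR adjusted p = 0.00232), against -0.01 with all libraries (adjusted p = 0.991). The THBS1 differences of the lines differed by -2.00 (edgeR interaction test, adjusted p = 0.0184), which did not pass with a replicate block (adjusted p = 0.0692).

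**Figure D4:**
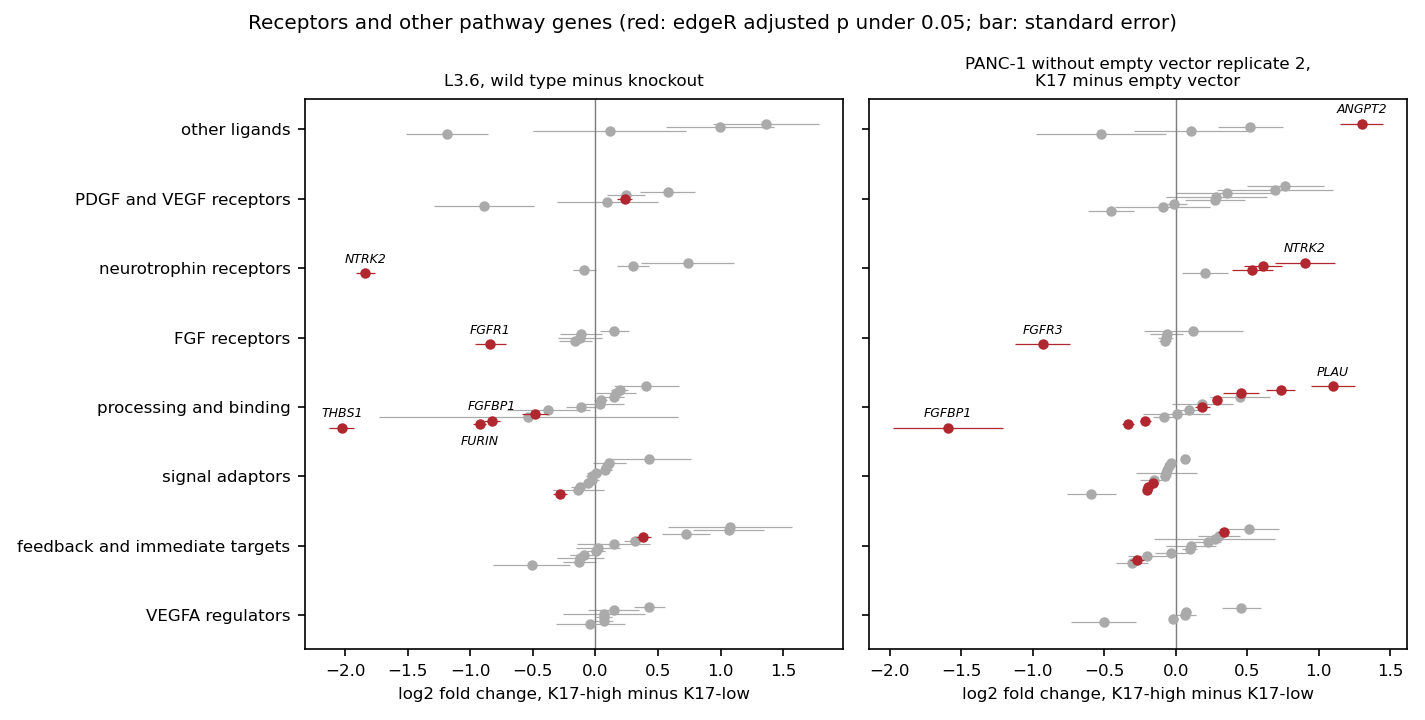
Log2 fold change of every tested pathway gene with its standard error, in L3.6 and in PANC-1 without empty vector replicate 2, grouped by list. Red points passed edgeR's test (9 in L3.6 and 18 in PANC-1), grey points did not, and names are given for red points beyond a log2 difference of 0.8 in size. NTRK2 stands at -1.84 in L3.6 and at 0.90 in PANC-1.

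Among all genes of L3.6 with a mean of at least 5 CPM, the pattern most like BDNF over the 6 libraries was that of its receptor NTRK2, with a Pearson r of 0.9991 on log2 CPM. ARHGEF28 (r = 0.9988) and FXR2 (r = 0.9987), an RNA-binding protein, followed. For PDGFB the closest were the myelin protein gene PMP22 (r = 0.9977), the gasdermin GSDME (r = 0.9973) and the laminin chain gene LAMA5 (r = 0.9965). All 6 had higher means in the knockout, such as 20.6 against 8.62 CPM for PMP22 and 36.1 against 17.6 CPM for ARHGEF28. The 6 points share their libraries and fall into 2 groups, so these values describe mainly the group difference and carry no test.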

How the data were processed

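The files hold 1 count per gene and library, deposited as whole numbers with no normalization. The submitters' processing notes list, among others, kallisto 0.46.2, STAR 2.7.3a, bcl2fastq 1.8.4 and GRCh38. The sources used here do not say which tool made the counts, nor its annotation, strand setting or treatment of shared reads. Total RNA came from TRIzol extraction and libraries from a TruSeq kit, per the labels' protocols. Of 34505 human rows, 34349 were named by the symbol table, and GENCODE 29 gave coordinates and lengths.

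The L3.6 and PANC-1 libraries had separate edgeR 4.0.16 fits (R 4.3.3) of the quasi-likelihood model, glmQLFit with its robust option and glmQLFTest, after filterByExpr and TMM scaling. P-values were adjusted by Benjamini and Hochberg across every gene kept, at a threshold of 0.05. The difference between lines was an interaction term over the 12 human libraries. Log2 CPM used a prior count of 2. Floors are 3 counts and cover counting error only. Scripts were tested on simulated data. Alternatives were RLE factors, no filter, a filter of 1 CPM in 3 libraries, DESeq2 1.42.0, the replicate number as a block, 1 fit of the 4 human groups and each library left out. The alternatives add up, with the fit as described, to 13 settings a line.

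Named were all members, each pathway gene past the threshold in a line, the 2 most abundant of a list with no call in either line, and the 3 genes most like each of the 2 members with the largest L3.6 difference. Members and lists were chosen with earlier results of these data known.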

Additional observations from a re-analysis of the deposited data

Results flagged for a closer look

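The K17 difference of 3 pathway genes differed between the human lines by edgeR's interaction test. For NTRK2 the difference in L3.6 minus that in PANC-1 was -3.04 on the log2 scale (adjusted p = 0.00101). For THBS1 it was -2.00 (adjusted p = 0.0184), and for FGFR1 -0.78 (adjusted p = 0.0473). With a replicate block the values were -3.09 (adjusted p = 0.039), -2.09 (adjusted p = 0.0692) and -0.78 (adjusted p = 0.246). Without PANC-1 empty vector replicate 2 all 3 passed, at -2.82, -1.76 and -0.84. FURIN, PCSK6, FGFR3, SORT1 and NRP2 then passed too, at -1.19, -1.30, 1.00, -0.78 and 0.61, in a setting where 11.5% of all genes passed. With all libraries these did not pass, FURIN narrowly (edgeR interaction test, adjusted p = 0.0528).

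PDGFC, as a description with no test, stood on opposite sides in the lines, at -0.53 (log2) with wild type against knockout in L3.6 and 0.80 with K17 against empty vector in PANC-1, and its groups did not overlap in either line. The difference between the lines was not tested for PDGFC, since it was chosen with these comparisons known.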

How the results depend on the processing

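In L3.6 the genes called numbered 1335, 665 with the replicate block, 204 in 1 fit of the 4 human groups, and 574 to 2493 with single libraries left out, the highest without wild-type replicate 1. Pathway genes called there numbered 9, 14 with DESeq2, 4 in the fit of 4 groups and 6 to 12 with single libraries left out. In PANC-1 the genes called numbered 105, 595 with DESeq2, 363 in the fit of 4 groups and 0 with the replicate block, where 1262 had an unadjusted p under 0.05. With single PANC-1 libraries left out they numbered 0 to 3442, the highest without empty vector replicate 2. Pathway genes called in PANC-1 numbered 1, 3 with DESeq2 and 4 in the fit of 4 groups. They numbered 0 with the replicate block (edgeR, 8 at an unadjusted p under 0.05) and 0 to 18 with single libraries left out. Genes whose K17 difference differed between the lines numbered 270, 70 with a replicate block and 1819 without PANC-1 empty vector replicate 2. The cause of these shifts was not tested. Nothing is read from the counts of pathway genes, since the counts of all genes shifted between settings too.

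In PANC-1, 3 of the named pathway genes, all near 0, changed sign. THBS1 was -0.01, 0.10 with the replicate block and -0.34 to 0.19 with single libraries left out. FURIN was 0.037, -0.033 in the fit of 4 groups and -0.046 to 0.184 with single libraries left out, and FGFR1 was -0.032 and -0.072 to 0.0093. Same-numbered libraries did not deviate together (correlations of -0.12 to 0.02 in L3.6 and 0.02 to 0.09 in PANC-1), so the block is given as an alternative only. Depth limits VEGFC and the PDGF receptors, which lie near 3 counts in several libraries. Scaling over all 12 human libraries moved 16 of 32 member levels by more than the SD between replicates, and CPM without factors moved 1. Of the members' log2 differences 1 moved that far without the filter (PDGFA in L3.6) and 3 with a library left out, namely VEGFC in L3.6 without knockout replicate 1 and PDGFA and VEGFB in PANC-1 without empty vector replicate 2. In PANC-1 the sign also turned under some setting for PDGFA (-0.66 to 0.35), PDGFB (-0.04 to 0.10), VEGFB (-0.31 to 0.50), VEGFC (-0.39 to 0.67) and FGF2 (-0.47 to 0.28).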

Other observations

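The lines differed in several partners of these ligands, which were picked after their values were seen and are given as levels with no test. Of the neuropilins, NRP1 stood at 42.6 to 50.4 CPM in the L3.6 groups and 135.0 to 153.3 CPM in the PANC-1 groups, and NRP2 at 78.9 to 92.6 CPM in L3.6 and 2.32 to 2.87 CPM in PANC-1. The plasminogen activators, proteases that can cleave growth factor precursors, also went opposite ways, with PLAT at 127.3 to 168.6 CPM in L3.6 and 0.720 to 0.857 CPM in PANC-1, and PLAU at 1.24 to 1.66 and 15.9 to 17.8 CPM (8.29 in the empty vector group without its replicate 2). FGFBP1 stood at 211.6 to 375.8 CPM in L3.6 and 0.131 to 0.50 CPM in PANC-1. The neurotrophin gene NTF3 had 13 to 63 counts in the L3.6 libraries and 0 in all PANC-1 libraries. Rows may hold different parts of a gene's reads in the 2 lines, so these levels are set side by side with that limit.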
